A study of Mus musculus with 36 samples.

Results

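The 8 genes described here encode nuclear factors of B cells: Pax5, Ebf1, Spib, Pou2af1, Pou2f2, Bach2, Ikzf3, and Bcl11a. They were chosen by name, as every probe that the array design assigns to 1 of these genes, which gave 12 of 39429 probes and 8 of the 31093 genes named on the array. All 8 genes passed the filters and were among the 15083 genes tested, each through its brightest probe. RNA of whole blood was read 7 days after exposure of male C57BL/6J mice, 8 to 10 weeks old, on single-colour Agilent arrays that each held 1 mouse. Of the 36 mice, 6 were sham-exposed controls, 6 received 3 Gy of x-rays, and 6 received 0.75 Gy neutron with no x-rays. Mixed field x-ray/neutron exposures of 3 Gy in all were given to 3 further groups of 6, in which 5, 15, or 25% of the dose (0.15, 0.45, or 0.75 Gy) came from neutrons. The source of the neutrons also gives off photons, so the neutron group did not receive neutrons alone.

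B cells are made from bone marrow progenitors under a small set of transcription factors. EBF1 and PAX5 switch on the genes of the B-cell receptor and hold cells in the lineage, SPIB and the octamer-binding factor OCT2 (gene Pou2f2) with its coactivator OCA-B (Pou2af1) act in maturing and activated B cells, and BACH2, AIOLOS (Ikzf3), and BCL11A are mainly known there as repressors or regulators of differentiation. Lymphocytes, and B cells in particular, are among the blood cells most sensitive to radiation.

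Levels are given as log2 signal relative to the median of the same array, so a difference of 1 is a 2-fold difference for that probe, and levels of different probes were not set against each other. A gene was called differentially expressed at a limma p below 0.001 and an adjusted p (Benjamini-Hochberg, over all genes tested) below 0.05, with 6 arrays against 6. Between 15569 and 21294 probes per array were well above background. The arrays were scanned in 4 sessions. The controls and the x-ray group shared 1 session with 5 arrays each, the 25% mixed field and neutron groups shared another, and neither of these last groups had an array in a session or on a slide with controls or x-rays, so that session and exposure cannot be told apart there. The 5 and 15% mixed field groups each had 1 array in a session with 1 control and 1 x-ray array. In whole blood, fewer B cells and less RNA per B cell cannot be told apart.

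The probes themselves set what could be measured. Pax5 and Pou2f2 each had a pair of probes, Bach2 and Bcl11a had a pair as well, and the other 4 genes had 1 probe. The probes within coding sequence are shown here, 5′ to 3′, because the second probes of Pax5 and Bach2 were too dim to be tested and the pair for Pou2f2 gave the same result.
Pax5, brighter probe (mm9 chr4:44658421-44658480, minus strand): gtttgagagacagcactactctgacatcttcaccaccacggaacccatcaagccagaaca
Pax5, dimmer probe (no position in the design): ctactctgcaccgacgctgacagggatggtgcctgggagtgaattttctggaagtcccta
Pou2f2, brighter probe (mm9 chr7:25877735-25877794, minus strand): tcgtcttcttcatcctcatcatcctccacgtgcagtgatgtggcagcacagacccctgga
Pou2f2, dimmer probe (no position in the design): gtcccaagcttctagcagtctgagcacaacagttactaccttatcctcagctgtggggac
Bach2, dimmer probe (mm9 chr4:32588782-32588841, plus strand): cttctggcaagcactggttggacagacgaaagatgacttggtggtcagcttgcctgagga

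Against the controls, 7 of the 8 genes were downregulated after x-rays and after each mixed field exposure, and 6 of 8 after 0.75 Gy neutron. None was upregulated. The same 7 genes lay below the controls without overlap in the x-ray and mixed field groups, and 5 (Ebf1, Spib, Pou2af1, Bach2, and Bcl11a) after neutrons. Of all genes tested, 16.9% were called lower after x-rays, 14.1% after the 5% mixed field, 16.5% after the 15% mixed field, 13.9% after the 25% mixed field, and 20.5% after neutrons, while 17, 13.8, 16.2, 15.4, and 20.3% lay below the controls without overlap. The gene that was not called in any of the 5 exposures was Ikzf3, and Pou2f2 was not called after neutrons. The median log2 fold-change of the 8 genes was -3.68 after x-rays, -3.32, -3.60, and -2.99 after the 5, 15, and 25% mixed fields, and -1.11 after neutrons, beside medians of -0.12 to -0.02 over all genes tested. The 5 comparisons share the same 6 control arrays. With the slide as a block, 2 genes were called after the 5% mixed field and 0 after the 15%, and with the session as a block 2 after the 15%, fits in which the contrast rests on 1 array per group. On those arrays the log2 differences were -4.80 (5%) and -4.17 (15%) for Ebf1 and -4.58 and -3.60 for Spib. After neutrons a model over all 36 arrays called 1 of the 8 genes and normexp background correction 3. Normexp called 357 of 10617 genes in all after neutrons, beside 5522 of 15083 in the main fit. The share of all genes called was not computed for the block fits or the model over 36 arrays.

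**Figure D1:**
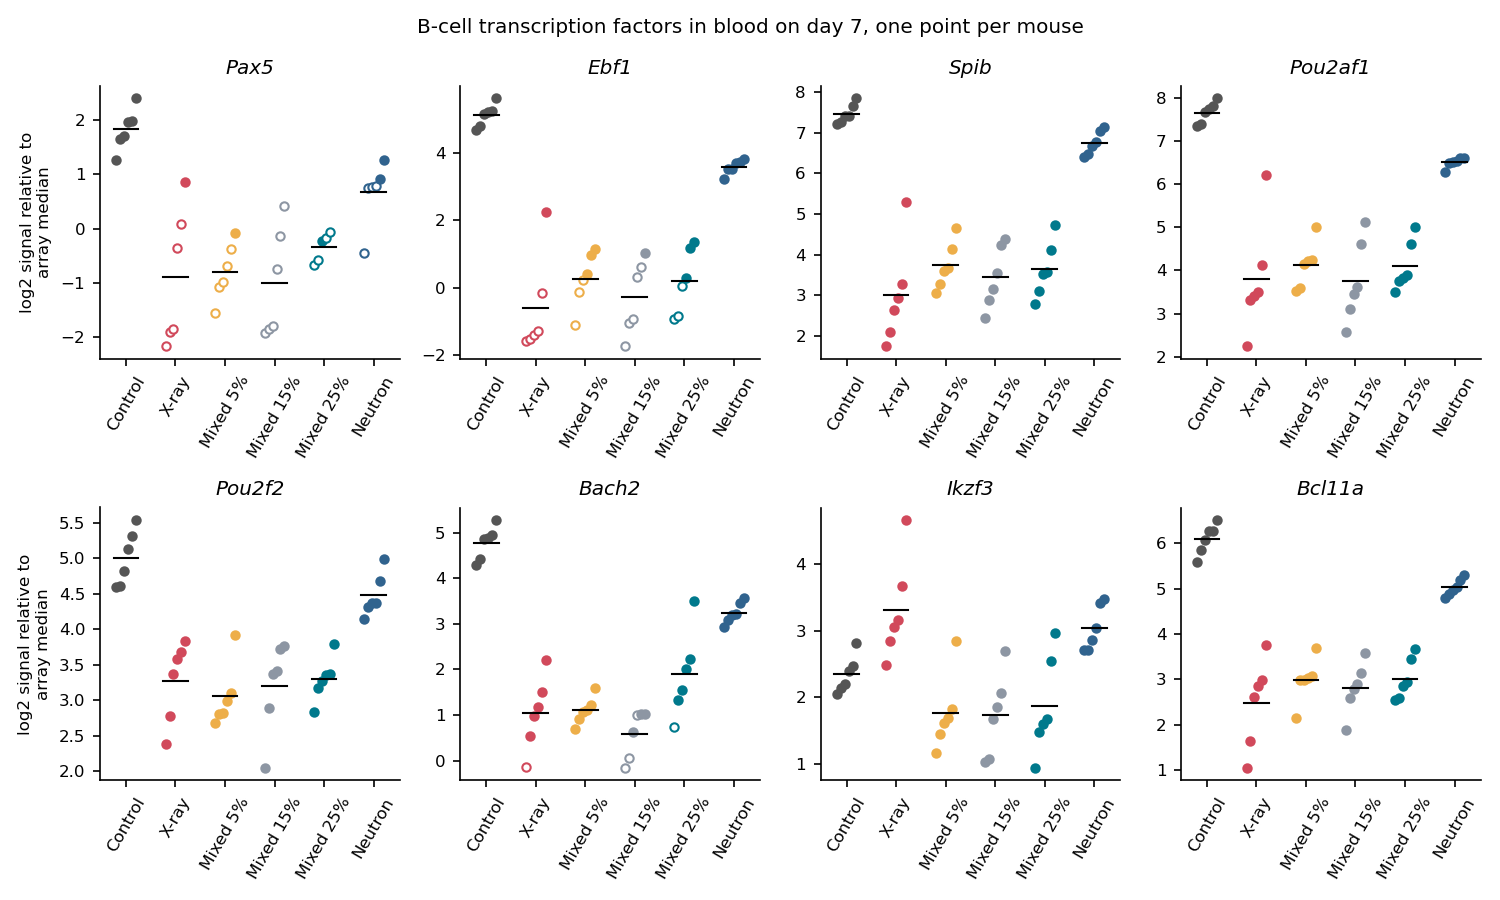
Log2 signal relative to the array median (y axis) of the brightest probe of each gene in the 6 groups (x axis), 1 point per mouse, with the group mean as a line. Filled points were well above background and open points were not. In 7 panels the controls lie above every mouse of the x-ray and mixed field groups; the Ikzf3 panel is the exception.

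**Figure D2:**
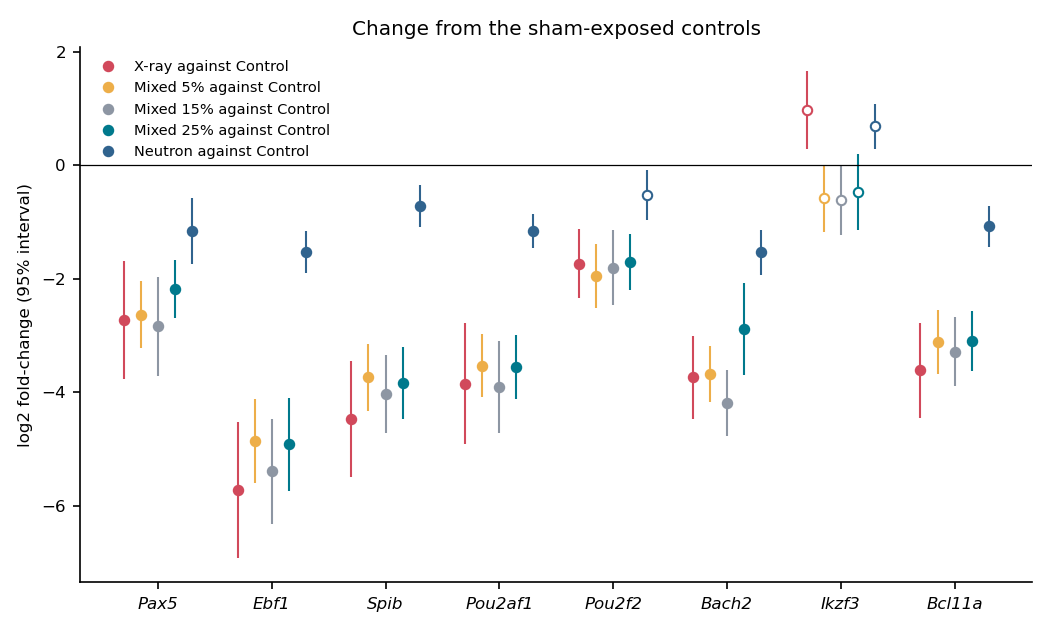
Log2 fold-change of each gene (x axis) against the controls in the 5 exposures, with 95% intervals as lines. Filled points were called differentially expressed. The neutron points of the 7 genes other than Ikzf3 lie between -1.54 and -0.52, nearer to 0 than those of the other exposures.

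Ebf1, the factor that opens B-lineage genes and induces Pax5, had the largest fitted change of the 8 in the 4 exposures of 3 Gy. This order did not hold with normexp background correction, under which Spib and Pou2af1 changed more. Bcl11a also changed more than Ebf1 with normexp after x-rays and the 5 and 25% mixed fields. The level of Ebf1 in the controls was lowest at 4.69, with a median of 5.18 and a highest value of 5.61. After x-rays the lowest level was -1.57, the median -1.33, and the highest 2.25, and after neutrons these were 3.22, 3.61, and 3.81. The groups did not overlap: each irradiated mouse was below each control, and the neutron-exposed mice lay above all mice given 3 Gy. Ebf1 was 52.8-fold lower after x-rays (log2 fold-change -5.72 ± 0.56, SE; limma adjusted p = 5.69e-06), 29.1-, 42.2-, and 30.3-fold lower after the 5, 15, and 25% mixed fields, and 2.90-fold lower after neutrons (-1.53 ± 0.17; adjusted p = 8.48e-06). Only 1 x-ray array and 3, 1, and 3 mixed field arrays (in order of neutron share) were well above background, so the folds of the 3 Gy groups rest largely on dim spots. With normexp the log2 fold-changes were -2.78 after x-rays and -2.77, -2.80, and -2.76 after the 5, 15, and 25% mixed fields, and they were still called. The medians over all genes under normexp were -0.78, -1.21, -0.18, and -0.56 in these comparisons and were not subtracted.

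Pax5, which commits progenitors to the B lineage and keeps mature B cells in it, was measured close to background. Its brighter probe ranged from 1.26 to 2.40 in the controls, with a median of 1.84, and was well above background on 6 of 6 arrays. After x-rays it ranged from -2.18 to 0.86 with a median of -1.10, and after neutrons from -0.45 to 1.27 with a median of 0.77. The x-ray and mixed field groups lay below the controls without overlap, while the highest neutron array overlapped the lowest control. The log2 fold-change was -2.72 ± 0.48 after x-rays (adjusted p = 0.000506), -2.63 after the 5% mixed field, -2.18 after the 25% mixed field, for which 1 array had no uniform spot and was left out, and -1.16 ± 0.27 after neutrons (adjusted p = 0.00225). Only 1 array each of the x-ray, 5%, and 25% groups and 2 neutron arrays were well above background, so these folds rest largely on dim spots. After the 15% mixed field no array was well above background, so that Pax5 was at least 3.10-fold lower there, counting each array at no less than the dimmest probe that was well above background on it. The limma adjusted p of 8.91e-05 belongs to the measured log2 fold-change of -2.84 and not to this bound, which was not tested. The dimmer probe was significantly above background on 6 arrays, all of them controls, and well above it on 1, and no bound on its fold could be set. The neutron call for Pax5 was lost in 9 of the 12 fits that left out 1 array and held without control replicate 4, neutron replicate 2, or neutron replicate 4, with log2 fold-changes of -1.28 to -0.94.

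Spib encodes an ETS-family factor, a relative of PU.1, that is found in B cells and plasmacytoid dendritic cells. Its probe was well above background on all 36 arrays. The control levels were 7.22, 7.42, and 7.85 (lowest, median, and highest), the x-ray levels 1.74, 2.79, and 5.30, and the neutron levels 6.39, 6.72, and 7.14. The controls did not overlap any exposed group, and the x-ray group spread over more than the mixed field groups, whose arrays lay between 2.43 and 4.72. Spib was 22.3-fold lower after x-rays (adjusted p = 1.02e-05), 13.3-, 16.4-, and 14.3-fold lower after the 5, 15, and 25% mixed fields, and 1.65-fold lower after neutrons (log2 fold-change -0.72 ± 0.17; adjusted p = 0.00259). The neutron call was lost in 9 of the 12 fits without 1 array (it held without control replicate 1 or neutron replicate 4 or 6) and in 7 of the 17 other settings, with log2 fold-changes of -2.16 to -0.45 and no change of direction.

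The octamer-binding pair behaved unequally. Pou2af1, the B-cell coactivator that docks on octamer-bound OCT1 and OCT2, had control levels of 7.34, 7.71, and 7.99 (lowest, median, and highest), x-ray levels of 2.24, 3.46, and 6.22, and neutron levels of 6.27, 6.52, and 6.61. No exposed mouse reached the controls, and the 6 neutron arrays lay within 0.34 of each other. The log2 fold-change was -3.85 ± 0.50 after x-rays, -3.53, -3.91, and -3.56 after the 5, 15, and 25% mixed fields, and -1.15 ± 0.14 after neutrons (adjusted p = 1.61e-05). Pou2f2 itself fell by less. Its control levels were 4.60, 4.98, and 5.54 (lowest, median, and highest), the x-ray levels 2.39, 3.48, and 3.83, and the neutron levels 4.14, 4.37, and 5.00. It was 3.33-fold lower after x-rays (adjusted p = 0.000264) and 3.87-, 3.50-, and 3.26-fold lower after the mixed fields, without overlap with the controls. After neutrons it overlapped the controls and was not called (-0.52 ± 0.20; adjusted p = 0.0391). The second Pou2f2 probe was called in the same 4 exposures of 3 Gy and not after neutrons (-0.58; adjusted p = 0.0251), in a fit over all 21484 probes above background in which 16, 13.2, 15.3, 13.3, and 19.7% of probes were called lower in the 5 exposures.

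Bach2, a repressor that delays the turning of B cells into plasma cells, had control levels of 4.30, 4.87, and 5.28 (lowest, median, and highest), x-ray levels of -0.13, 1.07, and 2.21, and neutron levels of 2.93, 3.21, and 3.56. None of the exposed mice overlapped the controls. Bach2 was 13.3-fold lower after x-rays (adjusted p = 3.85e-06), 12.8- and 18.3-fold lower after the 5 and 15% mixed fields, 7.40-fold lower after the 25% mixed field, and 2.90-fold lower after neutrons (log2 fold-change -1.54 ± 0.18; adjusted p = 1.35e-05). Its probe was well above background on 31 of 36 arrays, with 3 of the 5 others in the 15% mixed field group. The dimmer probe, far upstream of the brighter one on the chromosome, was significantly above background on 6 controls, 1 x-ray array, and 1 neutron array. It was at least 1.12- to 1.51-fold lower after the 4 exposures of 3 Gy, and no bound could be set after neutrons.

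Bcl11a, a zinc-finger repressor needed for early B cells and known in red-cell precursors for silencing embryonic beta-like globins, had control levels of 5.60, 6.17, and 6.52 (lowest, median, and highest). After x-rays the levels were 1.05, 2.74, and 3.76, and after neutrons 4.79, 5.00, and 5.30, in each case below all controls. Bcl11a was 12.3-fold lower after x-rays (adjusted p = 1.22e-05), 8.68-, 9.74-, and 8.53-fold lower after the mixed fields, and 2.10-fold lower after neutrons (adjusted p = 0.000127). Its second probe was also called lower in all 5 exposures. Of the 3 embryonic globins listed for BCL11A, the beta-like Hbb-y and Hbb-bh1 were upregulated in all 5 exposures. The alpha-like Hba-x also met the call, but no array of the control, x-ray, or neutron groups held it well above background, and no fold is given. Hbb-y had log2 fold-changes of 2.51 after x-rays, 2.73, 3.47, and 3.06 after the mixed fields, and 2.35 after neutrons, and Hbb-bh1 had 4.11, 4.15, 4.35, 4.66, and 1.12. The control mean of Hbb-bh1 was -0.33, near the dimmest level that was well above background (median over arrays -0.07). Its folds therefore start from dim control spots and are uncertain in size. Of all genes tested, 12.9, 9.04, 12.6, 10.9, and 16.1% were called higher in these comparisons. Red-cell markers were called higher beside them, at 6, 6, 6, 4, and 7 of 7 genes tested, and their part in the globin values was not tested, nor was cross-hybridisation from the adult globins, whose RNA had been depleted.

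Ikzf3 encodes AIOLOS, an Ikaros-family factor of mature B cells that T and natural killer cells also express, and it did not follow the other 7 genes. Its control levels were 2.05, 2.29, and 2.81 (lowest, median, and highest), its x-ray levels 2.48, 3.11, and 4.66, and its neutron levels 2.71, 2.94, and 3.47. The 5% mixed field levels were 1.16, 1.66, and 2.85, those of the 15% mixed field 1.02, 1.77, and 2.70, and those of the 25% mixed field 0.94, 1.64, and 2.96. The x-ray and neutron means were above the control mean and the mixed field means below it, and every exposed group overlapped the controls. The log2 fold-change was 0.97 ± 0.32 after x-rays (adjusted p = 0.0191), 0.69 ± 0.19 after neutrons (adjusted p = 0.00595), and -0.58, -0.61, and -0.47 after the 5, 15, and 25% mixed fields (adjusted p = 0.102, 0.0927, and 0.228). None of these met the call. Within the session that held 5 controls and 5 x-ray arrays, the difference was 0.99 and the groups did not overlap. They nearly met, at 2.46 for the highest control and 2.48 for the lowest x-ray array. The highest control of all (2.81) was scanned in another session. Over 18 other settings it stayed between 0.72 and 1.31 after x-rays, and over 16 settings between 0.60 and 0.96 after neutrons. It was called higher after x-rays in 2 of the 18 (array weights, adjusted p alone) and after neutrons in 4 of the 16 (these same settings, quantile normalization, and scaling on the 75th percentile), as well as without control replicate 3.

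T-cell and natural killer cell markers were read beside Ikzf3. Of 10 T-cell genes, 2, 4, 5, 3, and 1 were called lower after x-rays, the 5, 15, and 25% mixed fields, and neutrons (beside 16.9, 14.1, 16.5, 13.9, and 20.5% of all genes tested), and none higher. Cd2, an adhesion receptor of T cells, had a log2 fold-change of -1.76 after x-rays and -1.22 after neutrons, and Lck, a T-cell kinase, had -0.87 and -0.37 without a call. The summed T-cell level ranged from 10.12 to 10.87 in the controls, 9.12 to 9.98 after x-rays, and 9.57 to 10.46 after neutrons. Of 7 natural killer cell genes, 1 was called higher after the 25% mixed field (beside 10.9% of all genes tested) and none otherwise. The granule genes Gzma and Prf1 had -0.09 and -0.03 after x-rays and 0.51 and -0.20 after neutrons, without calls. Each of the 10 T-cell genes was well above background on at least 1 array of each group. The part of these cells in the Ikzf3 values was not tested.

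In the comparisons fitted between exposures of 3 Gy, no call was made for any of the 8 genes. The 25% mixed field was not fitted against the 5 or 15% mixed field. Against x-rays, none was called after the 5, 15, or 25% mixed field, where 0, 4.09, and 2.61% of all genes tested were called, and none was called between the 15 and 5% mixed fields, where 0% were. For Spib the 95% interval of the log2 difference from x-rays ran from -0.36 to 1.83 for the 5% mixed field, from -0.72 to 1.61 for the 15% mixed field, and from -0.49 to 1.77 for the 25% mixed field. For Pou2f2 the intervals were -0.91 to 0.47, -0.83 to 0.69, and -0.59 to 0.65. Ikzf3 stood apart here, with log2 differences from x-rays of -1.55 ± 0.39, -1.58 ± 0.39, and -1.44 ± 0.41 and adjusted p values of 0.0774, 0.0269, and 0.0550. In the session that held 1 array each of the x-ray and the 5 and 15% mixed field groups, these were -0.82 for the 5% and -0.97 for the 15% mixed field. No array of the 25% mixed field was in that session.

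In the neutron group 6 of the 8 genes were called higher than in the x-ray group, where 6.5% of all genes tested were called higher. Ebf1 was 18.2-fold higher (log2 difference 4.19; 95% interval 3.01 to 5.37; adjusted p = 0.000186), Spib 13.5-fold, Pou2af1 6.48-fold, Bcl11a 5.83-fold, Bach2 4.60-fold, and Pou2f2 2.31-fold. The Pou2f2 call was lost without neutron replicate 2, 3, 5, or 6 or x-ray replicate 2 or 3, and Ebf1 was well above background on 1 of the 6 x-ray arrays. Pax5 was 2.95-fold higher without a call (adjusted p = 0.0339), and Ikzf3 differed by -0.28 (95% interval -0.98 to 0.42). Against the 25% mixed field, which held the same 0.75 Gy of neutrons plus x-rays and was scanned in the same session, 5 of 8 genes were called higher, where 4.02% of all genes tested were. Ebf1 was 10.5-fold higher, Spib 8.68-fold, Pou2af1 5.29-fold, Bcl11a 4.05-fold, and Pou2f2 2.27-fold. Bach2, Ikzf3, and Pax5 were 2.55-, 2.24-, and 2.02-fold higher, with adjusted p values of 0.0169, 0.0172, and 0.0211 and no call. With normexp background correction none of the 8 genes was called in these comparisons, in which 1 gene of 10617 was called against x-rays and 237 against the 25% mixed field. The log2 differences from x-rays kept their direction with normexp, at 0.80 for Ebf1, 1.92 for Spib, 1.22 for Pou2af1, 0.90 for Bcl11a, 0.49 for Bach2, and 0.31 for Pou2f2. Against the 25% mixed field they were 0.78 for Ebf1, 1.68 for Spib, 1.12 for Pou2af1, 0.70 for Bcl11a, and 0.24 for Pou2f2. The median over all genes under normexp was -0.37 against x-rays and -0.57 against the 25% mixed field, beside 0.09 and 0.05 in the main fit. These shifts were not subtracted.

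**Figure D3:**
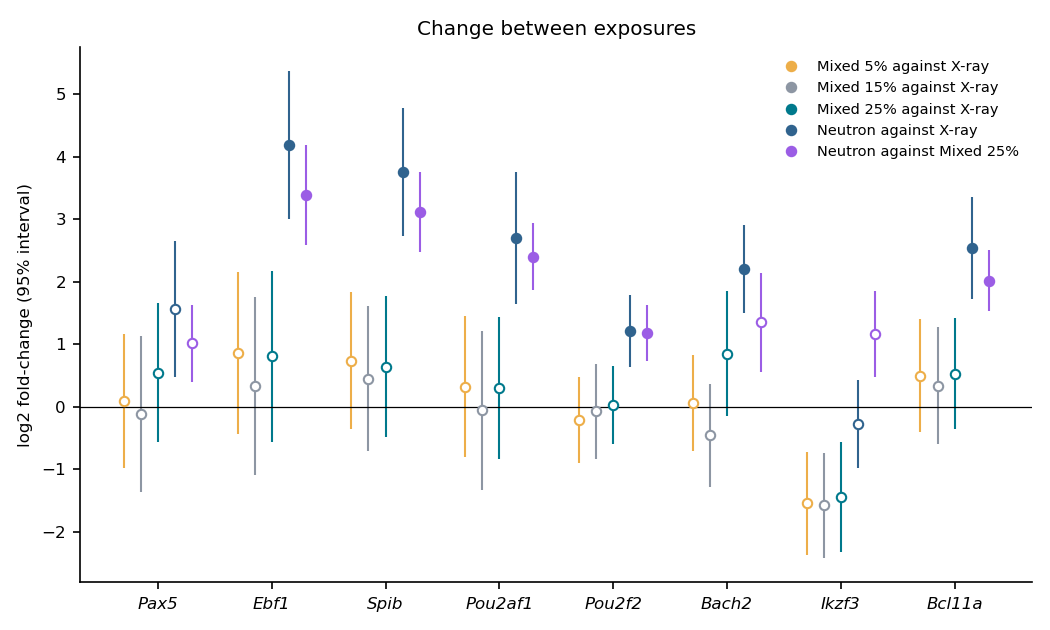
Log2 fold-change of each gene (x axis) between exposures, with 95% intervals as lines and filled points for genes called differentially expressed. Except for Ikzf3, the intervals of the mixed field against x-ray comparisons cross 0, and the neutron group lies above x-rays and above the 25% mixed field for 7 genes.

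When the 6 group means of each gene were put in order and neighbours compared (40 exact two-sided permutation tests, 6 arrays against 6), the controls came first, the neutron group second, and the 4 exposures of 3 Gy last for each gene except Ikzf3. For Pax5 the 25% mixed field entered these tests with 5 arrays. Controls and neutrons differed for Ebf1, Spib, Pou2af1, Bach2, and Bcl11a at the smallest p that 6 against 6 arrays allow (exact permutation p = 0.00216) and for Pax5 (exact permutation p = 0.00433). For Pou2f2 they were not separated after adjustment (exact permutation p = 0.0303, adjusted over 40 tests 0.0808). The neutron group differed from the highest of the 3 Gy groups in each of the 7 genes (exact permutation p = 0.0108 for Pax5, 0.0130 for Bach2, and 0.00216 for the others). Neighbours among the 4 exposures of 3 Gy were not separated beyond their spread for any of these 7 genes. The order for Ikzf3 was x-rays, neutrons, controls, and the 25, 5, and 15% mixed fields, and its neutron and control groups differed (exact permutation p = 0.00649, adjusted 0.0216).

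To ask whether the factors changed by another amount than the cells' own markers, each gene was set against the mean of 17 B-cell surface and signalling genes on the same array, which removes any scaling of the array. Of these 17 genes, 16, 16, 15, 16, and 13 were called lower after x-rays, the 5, 15, and 25% mixed fields, and neutrons, with median log2 fold-changes of -4.10, -3.86, -3.99, -4.20, and -1.41. Single genes of the list ranged from -5.63 to -1.31 after x-rays and from -2.46 to -0.09 after neutrons. After the 5, 15, and 25% mixed fields the ranges were -7.34 to -0.70, -6.98 to -0.85, and -6.38 to -0.74. Of all genes tested, 16.9, 14.1, 16.5, 13.9, and 20.5% were called lower in these comparisons. Cd79b, a chain of the B-cell receptor, had -4.86 after x-rays and -1.56 after neutrons, and Fcmr, the receptor for IgM, had -5.23 and -1.32. Their summed level ranged from 11.86 to 12.63 in the controls, 7.44 to 10.06 after x-rays, and 10.71 to 11.17 after neutrons, and the only gene of them that no array of a group held well above background was Cd180 after the 5% mixed field. Of 40 tests (8 genes, 5 exposures), 22 had an adjusted p below 0.05, 15 of them with the factor higher relative to the markers and 7 lower.

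Ikzf3 and Pou2f2 were higher relative to the B-cell markers in all 5 exposures (adjusted exact permutation p = 0.00481 each). The difference was 4.71 on the log2 scale for Ikzf3 after x-rays, 3.05 to 3.21 after the mixed fields, and 1.99 after neutrons, and for Pou2f2 it was 2.00, 1.68 to 1.98, and 0.78. Ebf1 was lower relative to the markers in all 5, by -1.98 after x-rays, -1.70 to -1.23 after the mixed fields, and -0.23 after neutrons (adjusted exact permutation p = 0.0273 for neutrons and 0.00481 otherwise). These tests use the mean of the markers, and single markers differed widely in their change. The change of Pou2f2 lay within the range of single markers in all 5 exposures, and that of Ebf1 in all but x-rays. Ikzf3 lay above every marker in all 5. Pou2af1 and Bach2 were not separated from the markers in any exposure, with differences of -0.21 to 0.15 and -0.50 to 0.80. Spib was below the markers after x-rays (-0.74) and the 15% mixed field (-0.33) and above them after neutrons (0.58). Pax5 was above them after the 5% (1.00) and 25% (1.57) mixed fields, and Bcl11a after the 25% mixed field (0.59) and neutrons (0.23). Dim spots limit how far a gene can be seen to fall, which bears on Pax5 first. The Ebf1 differences also rest largely on dim spots. Ebf1 was well above background on 1 x-ray array and on 3, 1, and 3 arrays of the 5, 15, and 25% mixed fields. Differences from the markers were not computed with normexp background correction, under which the Ebf1 changes from controls were smaller in these groups.

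**Figure D4:**
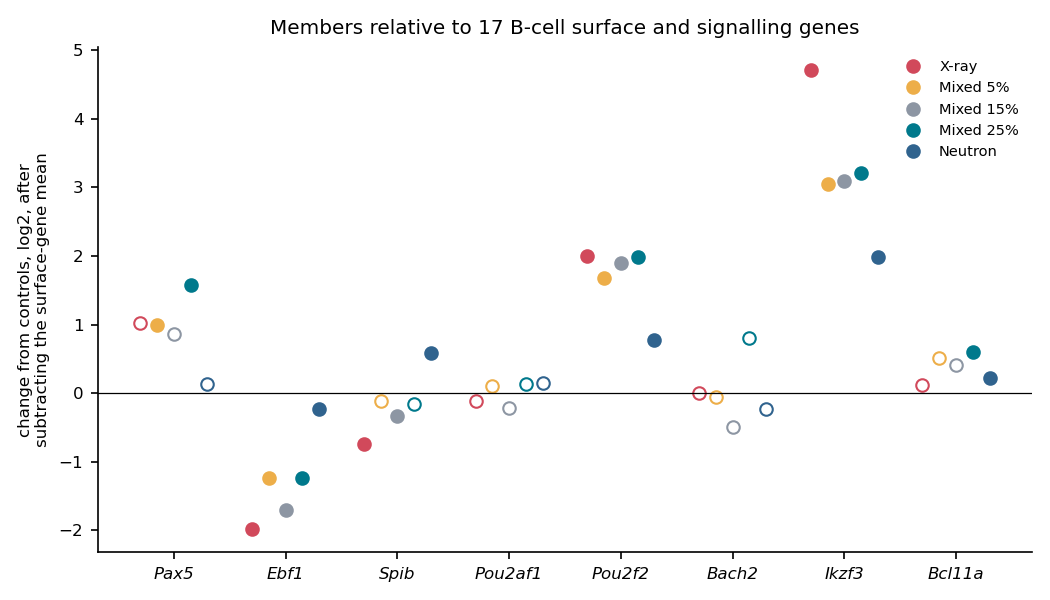
Change from the controls of each gene (x axis) after subtraction of the mean of 17 B-cell surface and signalling genes on the same array (y axis, log2), 1 point per exposure. Filled points had an adjusted exact permutation p below 0.05. Ikzf3 and Pou2f2 lie above 0 and Ebf1 below 0 in all 5 exposures.

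Factors of the same families that are not restricted to B cells were looked at next. Of 15 relatives 10 were tested (Pax2, Pax8, Ebf2, Ebf3, and Bach1 did not pass the filters), with 2, 3, 3, 3, and 2 called lower (beside 16.9, 14.1, 16.5, 13.9, and 20.5% of all genes tested) and 1 called higher in each exposure (beside 12.9, 9.04, 12.6, 10.9, and 16.1%). Pou2f1, the widely expressed octamer-binding factor OCT1, was called lower in all 5 exposures, with log2 fold-changes of -1.95 after x-rays, -1.41, -1.40, and -1.26 after the mixed fields, and -0.78 after neutrons. Bcl11b, a T-cell factor, was also called lower in all 5, at -1.33, -2.03, -1.76, -1.13, and -1.16. The gene called higher was Ikzf5, at 1.81, 1.41, 1.59, 1.40, and 1.03.

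Ikzf1, which encodes Ikaros of all lymphocytes, was called lower after the 5 and 25% mixed fields (-1.27 and -0.86) and had -0.99, -0.94, and -0.60 after x-rays, the 15% mixed field, and neutrons. Ikzf4 was called lower after the 15% mixed field (-1.39) and Ikzf2 was not called, with 0.23 to 1.07. Spi1, which encodes PU.1 of myeloid and B cells and is the closest relative of Spib here with Spic, had -0.45 to 0.04 and no call, and Spic had -1.09 to -0.56. Ebf4 had -1.13 to -0.22 and Pou2f3 -0.50 to 0.99, without calls. The log2 fold-changes of Pou2f2 and Pou2f1 lay within 0.54 of each other in all 5 exposures. Differences between a factor and its relatives were not tested.

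**Figure D5:**
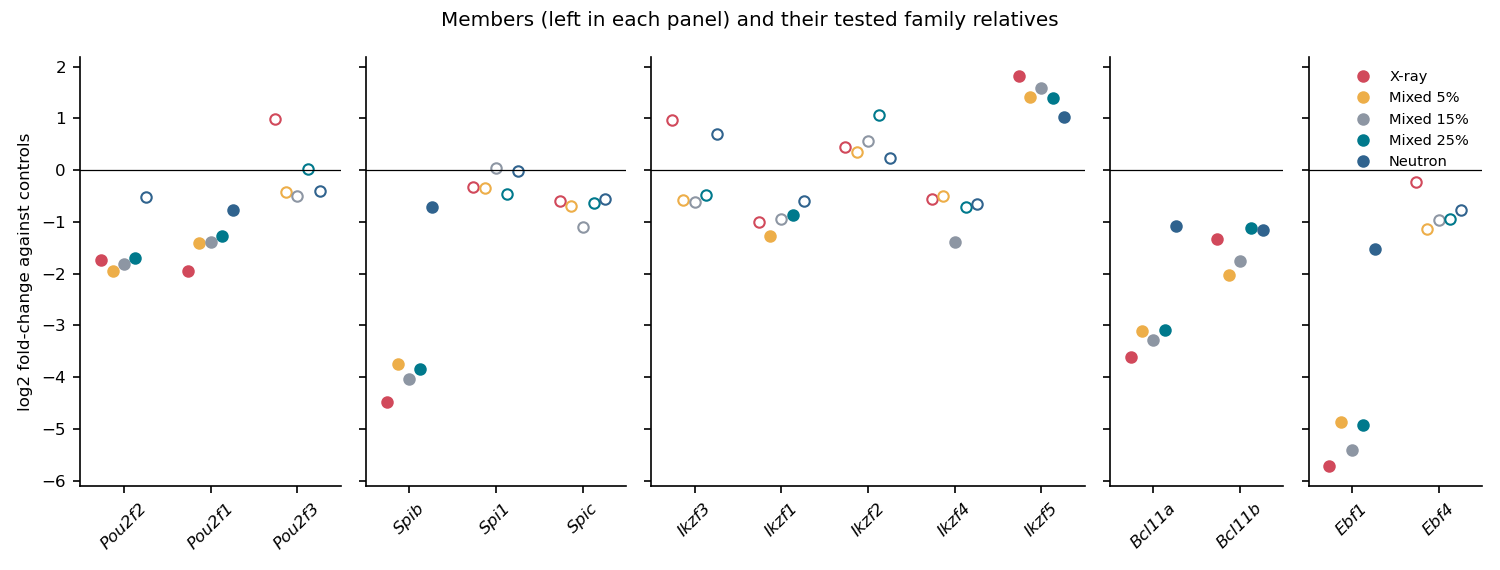
Log2 fold-change against the controls (y axis) of 5 of the genes, at the left of each panel, and of their tested family relatives, 1 point per exposure, filled where the gene was called. Spib lies between -4.48 and -3.74 in the exposures of 3 Gy and at -0.72 after neutrons, Spi1 between -0.45 and 0.04, and Spic between -1.09 and -0.56. The points of Pou2f1 lie within 0.54 of those of Pou2f2.

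Of 14 further regulators of B-cell development and function, all tested, 11, 7, 7, 6, and 6 were called lower after x-rays, the 5, 15, and 25% mixed fields, and neutrons. Of all genes tested, 16.9, 14.1, 16.5, 13.9, and 20.5% were called lower, shares that apply to the plasma-cell and plasmacytoid lists below as well. Klf2, which holds resting lymphocytes in circulation, had log2 fold-changes of -1.52 after x-rays and -1.36 after neutrons, both called. Irf8, a factor of B cells and monocytes, had -1.42 after x-rays, where it was called, and 0.03 after neutrons. Xbp1, a factor of plasma cells that was singled out after its values were seen because it was the only gene of this list called higher, had 1.14, 1.29, and 1.06 after the 5, 15, and 25% mixed fields. Of 3 plasma-cell markers tested, 1, 1, 1, 1, and 2 were called lower. Mzb1, also found in B cells, had -3.09 after x-rays and -1.25 after neutrons, both called, and Jchain, which links antibody units, had 0.83 and 0.49 without a call. Of 4 plasmacytoid dendritic-cell markers tested, 0, 1, 1, 1, and 1 were called lower, and Bst2 had -0.26 after x-rays and -0.62 after neutrons without a call. Ccr9, a chemokine receptor, was the gene called, with -1.85, -1.71, and -1.04 after the 5, 15, and 25% mixed fields and -1.18 after neutrons, and it had -1.19 after x-rays without a call.

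Markers of the other blood cells were read on the same arrays, and none of them was called lower. Of all genes tested, 12.9, 9.04, 12.6, 10.9, and 16.1% were called higher in the 5 exposures, in the order used below. Of 7 neutrophil genes tested, 4, 3, 4, 4, and 4 were called higher after x-rays, the 5, 15, and 25% mixed fields, and neutrons, while S100a9 and S100a8, which encode the main cytosolic proteins of neutrophils, had 0.25 and 0.03 after x-rays and 0.75 and -0.17 after neutrons without calls. Of 6 monocyte genes, 2 were called higher after neutrons and none otherwise. Csf1r, the receptor for the growth factor of monocytes, had 0.08 after x-rays and 0.82 after neutrons, where it was called, and F13a1 had 0.26 and 0.06. Of 6 platelet genes, 0, 0, 1, 2, and 1 were called higher. The platelet chemokine gene Pf4 had 1.97, 1.59, and 1.11 after the 15 and 25% mixed fields and neutrons, all called, and Ppbp had 0.25 to 0.96 without a call. Of the red-cell genes, Slc4a1, the anion exchanger of the red-cell membrane, had 2.72 after x-rays and 1.63 after neutrons, both called, and Alas2, an enzyme of heme synthesis, had 0.85 and 1.38, called after neutrons. The part of these cells in the values of the 8 genes was not tested.

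The genes whose pattern over the 36 arrays was most like each factor were found by the root-mean-square difference of the centred log2 levels, where 0 is an identical pattern. Ebf1 was nearest to Srpk3, Fcrla, and Cd79b (0.417, 0.457, and 0.523), Spib to Ly6d, Cd79a, and Cd79b (0.373, 0.394, and 0.405), and Bach2 to Cpm, H2-Oa, and Cd55 (0.544, 0.590, and 0.597). Pou2af1 was nearest to a transcript that the array design names only by its Ensembl identifier, to AF138742, and to Blnk (0.261, 0.283, and 0.300). Bcl11a was nearest to Btla, another transcript so named, and Swap70 (0.288, 0.372, and 0.412). The genes behind these identifiers were not looked up. Fcrla, Cd79a, Cd79b, Blnk, and Btla are known as genes of B cells. Pou2f2 was nearest to Nrm, Dok3, and Map4k1 (0.245, 0.255, and 0.309), and Pax5 to Myl4, Lta, and a further transcript named only by its identifier (0.703, 0.710, and 0.723), the largest distances of the 8. For Ikzf3 the nearest genes were Gm14151, Ephb2, and Apc (0.186, 0.210, and 0.231), which are not B-cell markers. Among the 8 genes themselves, Spib and Pou2af1 were the closest pair (0.417). The median distance over all genes tested was 1.10 to 2.43 for these factors, and the arrays share their groups, sessions, and cell makeup.

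The start regions of the genes were searched for short motifs of these factors, from 250 bases before to 50 after each start, on both strands (RefSeq, GRCm38.p6). The table held 8 such regions for 7 of the genes and none for Ikzf3. The octamer ATGCAAAT, found in 1.74% of 32851 start regions, the purine-rich ETS site GAGGAAGT (3.2%), and the BACH2 site TGAGTCA (5.2%) were not present in any of the 8. The EBF1 site CCCNNGGG, found in 13.7%, was present in that of Spib, as 2 overlapping matches. The 250 bases before the Spib start (chr7:44532072-44532321, minus strand) are shown with these matches in capitals.
Spib: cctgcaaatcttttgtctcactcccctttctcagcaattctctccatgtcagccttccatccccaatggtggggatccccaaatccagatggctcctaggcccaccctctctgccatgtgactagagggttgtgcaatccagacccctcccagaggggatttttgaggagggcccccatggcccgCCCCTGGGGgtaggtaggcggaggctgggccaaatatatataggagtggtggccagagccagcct
A match is a match of letters and not a measured binding site.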

How the data were processed

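Blood from 36 mice was hybridised to single-colour Agilent arrays, 1 per mouse, and groups were taken from the sample titles. Per the file headers and methods, the authors deposited scanner intensities from Agilent Feature Extraction 12.0.2, corrected for background within each array, in which spots not above background carry a surrogate value. Blood was collected in PAXgene tubes and globin RNA was depleted. The value table that the authors deposited holds filtered log2 values (14243 rows, column medians 6.28 to 6.99) and was used as an alternative.

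Intensities were analysed with limma 3.58.1 under R 4.3.3 and plotted with Python 3.11.15 and matplotlib 3.10.9. They were log2-transformed, averaged per probe over uniform spots, and centred on each array's median. Probes had to be significantly above background on more than 75% of arrays and at least 1.5-fold from their median on at least 20%, and the brightest probe stood for a gene. Groups were compared with limma (lmFit, eBayes) in 11 comparisons and with exact permutation tests for single values. The fit was tested on simulated data. Named were the 8 genes, all tested family relatives, the 2 brightest control genes of each other list, and the 3 nearest genes of each factor. The genes and lists were chosen with earlier results of these data known. Coordinates of probes are mm9, as in the array design. The number of arrays limits the precision.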

Additional observations from a re-analysis of the deposited data

Results flagged for a closer look

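In 4 of 48 groups (8 genes, 6 groups), 1 array lay far from the other 5, where chance gives about 1 in 20. Ebf1 was highest in x-ray replicate 1, at 2.25. This mouse was also the highest of the x-ray group for Spib (5.30), Pou2af1 (6.22), Bach2 (2.21), and Bcl11a (3.76), which were not flagged. Pou2f2 was highest in replicate 1 of the 5% mixed field, at 3.93. Pax5 was lowest in neutron replicate 2, at -0.45, and Pou2af1 was lowest in neutron replicate 3, at 6.27, within a group that spread little. All are log2 levels relative to the array median. The arrays are 4 different mice.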

How the results depend on the processing

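No call changed direction under any setting. Without 1 array at a time, 7 genes were called against controls after x-rays and each mixed field, 4 to 6 after neutrons, 0 to 1 in the 5 and 15% mixed fields against x-rays, 0 in the 25%, 5 to 7 for neutrons against x-rays, 5 to 6 for neutrons against the 25% mixed field, and 0 between the 15 and 5% mixed fields. The array whose absence gave 1 was replicate 5 for the 5% mixed field, and x-ray replicate 1 or mixed field replicate 3 for the 15%; the gene was Ikzf3. Pou2f2 lost its call for neutrons against x-rays without neutron replicate 2, 3, 5, or 6 or x-ray replicate 2 or 3, and Pax5 gained one without x-ray replicate 5. Against the 25% mixed field, calls were gained by Bach2 without mixed field replicate 2, Ikzf3 without mixed field replicate 5, and Pax5 without neutron replicate 2. Ikzf3 was called after neutrons without control replicate 3. With the slide as a block, 2 genes were called after the 5% mixed field and 0 after the 15%, and with the session as a block 2 after the 15%, each resting on 1 array per group. With normexp, 3 were called after neutrons against controls, 0 against x-rays, and 0 against the 25% mixed field. Of 10617 genes in all, normexp called 357, 1, and 237 in these comparisons. A model over all 36 arrays called 1 after neutrons against controls. That model and array weights each called 1 gene, Ikzf3, in each mixed field against x-rays. The 15% mixed field against x-rays also gave 1 with a floor of 10 on the intensities, a stricter background filter, or the adjusted p alone, which gave 8 for neutrons against the 25% mixed field. Scaling on the 75th percentile moved the all-gene median from -0.11 to 0.44 (log2) after x-rays, and Spib and Pax5 were then not called after neutrons (-0.45 and -0.89). Replicate numbers did not pair the arrays (mean correlation of deviations 0.0375 over 90 same-number pairs, -0.0063 over 450 others), and the replicate block gave 1 call in the 25% mixed field against x-rays.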
